A study of Mus musculus with 16 samples.

Results

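The glycolysis and hypoxia response genes are a set of 38 mouse genes picked by name and known function, with earlier results of these data known. They cover glucose uptake, the enzymes of glycolysis, lactate production and export, the oxygen-sensing factor HIF with its prolyl hydroxylases, and genes that HIF is known to switch on. Each was matched on the gene name in the array files, where Ero1a appears as Ero1l, and is represented by its brightest probe. All 38 were found among the 30874 genes of the array, and 37 passed the filter on dim probes, which left 24278 genes for testing. The exception was Slc16a1, not well above background on any of the 16 arrays.

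The arrays hold RNA of macrophages sorted by flow cytometry from female mice of strain C57/B6, 8 to 10 weeks of age per the labels. Tumor YFP+ macrophages (5 arrays) and tumor YFP- macrophages (5) came from pancreas tumors, and normal YFP+ (3) and normal YFP- macrophages (3) from normal pancreas. Flt3, a cytokine receptor of blood progenitors, drives Cre in these mice, and Cre turns on the yellow fluorescent protein YFP for good, so that YFP+ marks cells that, or whose ancestors, once expressed Flt3. The labels give no genotype for any sample, the series design names wild-type, KPC and FLT3-CRE/LSL-YFP mice, and the treatment protocol speaks of implanted tumors, so the tumor model is unclear here. Which cell states the YFP+ samples hold was not measured. Nothing in the labels says that the samples of a group came from separate animals, and p-values then measure only the spread between these samples. Throughout, a value is the log2 processed signal minus the 75th percentile of its array, so that 0 stands for that percentile, and arrays are listed by the number in their sample title: 23547, 23548, 23550, 23551 and 23677 for tumor, and 23912, 23916 and 23917 for normal pancreas.

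Glycolysis splits glucose into pyruvate in the cytosol and yields ATP without oxygen. When oxygen falls, the prolyl hydroxylases no longer mark the HIF alpha subunit for destruction. HIF with its partner ARNT then binds DNA at the core letters ACGTG and raises glucose transport, most glycolytic enzymes and lactate export. PDK1 shuts pyruvate dehydrogenase in mitochondria. Macrophages also turn to glycolysis when activated by inflammatory signals, with no lack of oxygen.

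Arrays were alike in brightness, with a 75th percentile of 2167 to 3388 intensity units, and 64.9% to 75.4% of spots were well above background. All 14 macrophage markers were well above background on every array, and their summed linear signal, in multiples of the 75th percentile, was 368 to 473 in tumor YFP+ samples and 352 to 511 in tumor YFP- samples. It was 408 to 495 in normal YFP+ samples and 364 to 642 in normal YFP- samples. Markers of acinar cells, the enzyme-secreting cells of the pancreas, reached sums of 5.14 to 11.7 in YFP+ and 7.45 to 13 in YFP- tumor samples, against 312 to 450 in YFP+ and 411 to 977 in YFP- normal samples. All 14 of them on the array were well above background on every normal array, and 11 of 14 on every tumor array. Neutrophil markers summed to 39.4 to 44.6 and 49.9 to 61 in tumor YFP+ and YFP- samples, against 29.5 to 36.5 and 33.7 to 37.9 in normal YFP+ and YFP- samples. Ductal and epithelial markers summed to 12 to 20.3 and 28.9 to 40.8 in tumor YFP+ and YFP- samples, against 3.73 to 7.89 and 5.43 to 6.32 in the normal ones, where Cdh1, Sox9, Tff1 and Cftr were at background. Of 13 tested, 5 rose in YFP+ and 9 in YFP- macrophages. Plasma cell markers summed to 47.1 to 76.6 in tumor YFP+ against 9.96 to 13.2 in normal YFP+ samples (6 of 8 rose), and to 14.8 to 28.5 in tumor YFP- against 7.06 to 9.36 in normal YFP- samples (5 rose and 2 fell). Mast cell and basophil markers summed to 10.2 to 55.4 in tumor YFP- against 1.48 to 5.09 in normal YFP- samples (8 of 9 rose), and to 2.32 to 6.2 in tumor YFP+ against 1.21 to 3.11 in normal YFP+ samples (1 rose), with Ms4a2 at background in every group. Fibroblast and stellate cell markers summed to 71.7 to 111 in tumor YFP- against 8.15 to 73 in normal YFP- samples (7 of 14 rose). These lists moved with the tissue comparisons below, and their part in the results was not tested. In bulk samples of sorted cells, fewer cells of a type and less RNA per cell cannot be told apart.

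Most of the pathway stood higher in tumor macrophages, in both populations. Of the 37 genes, 26 rose and 1 fell in tumor against normal pancreas among YFP+ macrophages (limma, adjusted p under 0.05 over all genes), beside 6.03% of all genes tested that rose and 6.06% that fell. Among YFP- macrophages 26 rose and 1 fell too, beside 8.03% and 7.74% of all genes. Both counts of 26 include Adm, which passed the filter on dim probes only through its tumor arrays. The 26 that rose were the same genes in both populations, and the 1 that fell was Pfkfb4 in both. YFP+ and YFP- samples carry the same title numbers and may come from the same animals. The 2 comparisons are therefore not taken as independent. The median log2 difference of the 37 was 1.23 in YFP+ and 1.41 in YFP- macrophages, against -0.04 and -0.16 over all genes. Every tumor array lay above every normal array for 26 genes in YFP+ macrophages (10.1% of all genes tested) and for 27 in YFP- macrophages (9.78% of all genes). Within the 3 slides (glass carriers of 4 arrays) that held both tumor and normal arrays of a population, the median of the 37 was 1.0, 1.35 and 1.1 in YFP+ and 1.47, 1.43 and 1.54 in YFP- macrophages. The 27 genes past the threshold kept their direction on each slide, which was fixed in advance because their tumor and normal arrays did not overlap. Between YFP+ and YFP- macrophages, 0 of the 37 passed in tumor (2.39% of all genes) and 0 in normal pancreas (0.0206%).

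**Figure D1:**
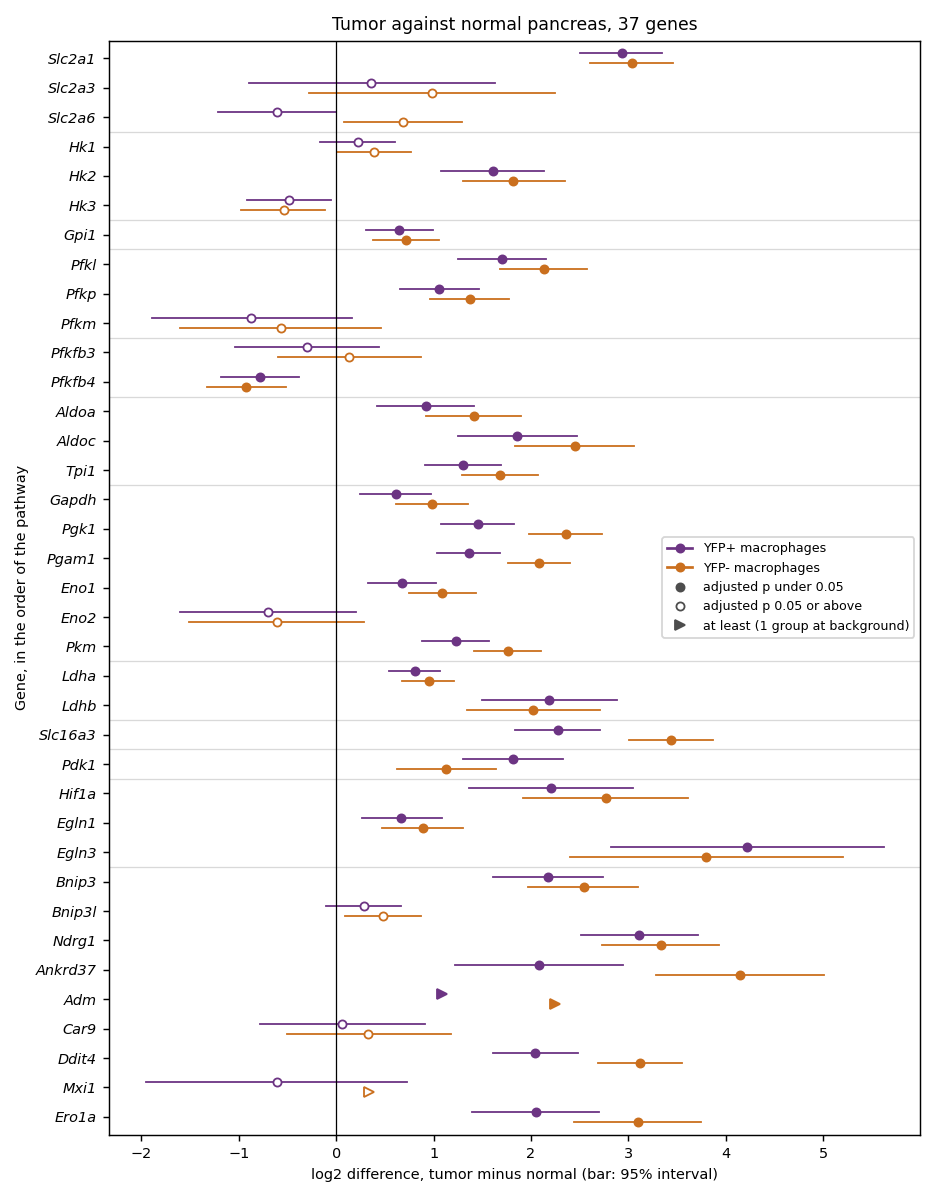
Log2 difference of tumor minus normal pancreas for the 37 genes tested, from the first step of the pathway at the top to HIF targets at the bottom, in YFP+ (purple) and YFP- (orange) macrophages, with 95% intervals; filled points are past the threshold, and triangles are lower bounds where the normal group was not well above background (Adm and, in YFP-, Mxi1). The 26 filled symbols right of 0 are the same genes in both colours, and Pfkfb4 is filled on the left.

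The promoters of 4 genes with large tumor differences are shown because they carry the letters that HIF binds. They are Egln3, Ankrd37, Slc2a1 and Slc16a3, the 4 with the largest mean tumor difference among genes with a promoter window that rose and hold ACGTG or its reverse complement CACGT in the 250 bases before the listed start. Sequences are from RefSeq, build GRCm38.p6, in the direction of transcription, with the motif letters in capitals.
Egln3, chr12:54203875-54204124, strand -: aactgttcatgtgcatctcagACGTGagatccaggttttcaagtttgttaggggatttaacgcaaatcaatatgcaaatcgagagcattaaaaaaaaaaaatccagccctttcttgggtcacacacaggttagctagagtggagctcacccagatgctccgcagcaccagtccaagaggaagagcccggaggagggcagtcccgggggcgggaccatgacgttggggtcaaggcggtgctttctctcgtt
Ankrd37, chr8:45999851-46000100, strand -: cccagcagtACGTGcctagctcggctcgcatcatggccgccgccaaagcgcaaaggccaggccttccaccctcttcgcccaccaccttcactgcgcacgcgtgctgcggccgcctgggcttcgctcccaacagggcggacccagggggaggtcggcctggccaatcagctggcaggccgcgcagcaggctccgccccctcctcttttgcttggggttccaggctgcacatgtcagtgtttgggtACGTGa
Slc2a1, chr4:119108495-119108744, strand +: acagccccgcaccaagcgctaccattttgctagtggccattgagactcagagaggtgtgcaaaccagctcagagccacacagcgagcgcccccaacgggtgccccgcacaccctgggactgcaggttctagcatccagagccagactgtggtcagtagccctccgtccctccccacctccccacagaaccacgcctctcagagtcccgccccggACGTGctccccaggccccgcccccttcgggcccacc
Slc16a3, chr11:120948817-120949066, strand +: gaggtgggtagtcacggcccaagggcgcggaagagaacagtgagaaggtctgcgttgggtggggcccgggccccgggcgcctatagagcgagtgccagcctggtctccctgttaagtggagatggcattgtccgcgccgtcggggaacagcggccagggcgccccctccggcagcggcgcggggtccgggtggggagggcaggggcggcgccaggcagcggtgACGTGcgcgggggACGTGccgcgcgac
Ankrd37 and Slc16a3 hold the motif at 2 places each, and in Slc16a3 both lie within the last 27 bases before the start. Windows from 250 bases before to 50 after the start were on hand for 35 of the 38 genes, and 24 of these genes (68.6%) had the motif on either strand, against 21.8% of all 27025 genes with a window. Among the members the share was 17 of 25 (68%) for genes that rose in tumor and 7 of 10 (70%) for the others. Part of the set was chosen as known HIF targets, and a match is a description of letters, not a site. The longer letters CACGTG, an E box that contains ACGTG and is bound by other factors, were found in 6 of the 35 (17.1%), against 8.09% of all genes. The array's Slc2a1 probe lies, on build mm9, on chromosome 4, 118809864 to 118809923, that of Slc16a3 on chromosome 11, 120820023 to 120820082, that of Egln3 on chromosome 12, 55281252 to 55281311, and that of Ankrd37 on chromosome 8, 47082404 to 47082463. No annotation of that build was used here, so exon or UTR is not given.

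Glucose enters the cell through transporters of the Slc2a family, and 1 of the 3 genes measured rose. Slc2a1, which encodes the widely used transporter GLUT1, read 2.18, 2.57, 2.47, 2.49 and 2.61 on the tumor YFP+ arrays, against -0.67, -0.73 and 0.00 on the normal YFP+ arrays. Slc2a1 read 2.24, 2.06, 2.39, 2.64 and 2.60 on the tumor YFP- arrays, against -0.67, -0.80 and -0.48 on the normal YFP- arrays. All tumor arrays lay far above all normal arrays, which stayed at or below 0. The difference was 2.93 ± 0.20 (SE, 7.6-fold, adjusted p = 3.53e-07) in YFP+ and 3.04 ± 0.20 (8.2-fold, adjusted p = 1.79e-07) in YFP- macrophages. Slc2a3, which encodes the high-affinity transporter GLUT3, ranged from -3.51 to -0.94 over the tumor arrays and from -3.41 to -1.66 over the normal arrays. Its tumor differences of 0.36 (adjusted p = 0.801) in YFP+ and 0.98 (adjusted p = 0.281) in YFP- macrophages did not pass the test. Slc2a6, which encodes the transporter GLUT6, differed by -0.61 (adjusted p = 0.211) in YFP+ and 0.69 (adjusted p = 0.12) in YFP- macrophages, with opposite signs and neither past the threshold. Without normal YFP- 23912 the YFP- difference of Slc2a6 passed (1.07, adjusted p = 0.0128). With array weights, by which limma counts arrays unequally, Slc2a3 (1.39, adjusted p = 0.029) and Slc2a6 (0.98, 0.00537) passed in YFP- macrophages. Of all 24278 genes, 9225 passed in YFP- and 4467 in YFP+ macrophages with these weights, against 3829 and 2936 without. The tumor against normal calls with array weights below are to be read beside these counts.

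Hexokinases trap glucose inside the cell by phosphorylation, and 1 of the 3 measured rose. Hk2, the hexokinase isoform known to be raised by HIF and by activation, read 0.75, 1.19, 1.31, 1.0 and 1.57 on the tumor YFP+ arrays, against -0.69, -0.21 and -0.44 on the normal YFP+ arrays. Hk2 read 0.77, 1.03, 1.31, 1.53 and 1.05 on the tumor YFP- arrays, against -1.20, -0.58 and -0.26 on the normal YFP- arrays. Tumor arrays were all above 0 and normal arrays all below it. Hk2 differed by 1.61 ± 0.25 (SE, 3.05-fold, adjusted p = 0.000512) in YFP+ and 1.82 ± 0.25 (3.53-fold, adjusted p = 0.000151) in YFP- macrophages. Hk1, the isoform of most tissues, differed by 0.22 (adjusted p = 0.538) in YFP+ and 0.39 (adjusted p = 0.159) in YFP- macrophages, and Hk3, an isoform of blood cells, by -0.48 (adjusted p = 0.155) in YFP+ and -0.54 (adjusted p = 0.0845) in YFP- macrophages. Neither passed in the main setting, and the probe used for Hk1 is listed on a chromosome other than that of the gene. Without tumor YFP- 23677 Hk3 passed as lower in YFP- macrophages (-0.66, adjusted p = 0.0239). With array weights Hk3 passed as lower in YFP+ (-0.55, adjusted p = 0.0431) and YFP- macrophages (-0.79, 0.00253), and Hk1 as higher in YFP- macrophages (0.42, 0.0348). Gpi1, the isomerase that turns glucose 6-phosphate into fructose 6-phosphate, read 4.69, 4.71, 4.54, 4.91 and 4.91 on the tumor YFP+ arrays, against 3.91, 4.14 and 4.25 on the normal YFP+ arrays. Gpi1 read 4.86, 4.72, 4.56, 4.81 and 5.14 on the tumor YFP- arrays, against 4.01, 4.11 and 4.18 on the normal YFP- arrays. The groups did not overlap, and the difference was 0.65 ± 0.16 (SE, 1.57-fold, adjusted p = 0.0145) in YFP+ and 0.72 ± 0.16 (1.65-fold, adjusted p = 0.00677) in YFP- macrophages. In YFP+ macrophages this call was lost with quantile normalization and with the deposited values (0.37, adjusted p = 0.106 each) and without normal YFP+ 23912 (0.55, adjusted p = 0.0814). In YFP- macrophages it was lost in a fit of the 2 groups alone (0.72, adjusted p = 0.0573).

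Phosphofructokinase commits sugar to glycolysis, and 2 of its 3 subunit genes rose. Pfkl, the liver-type subunit that macrophages also use, read 2.49, 2.84, 2.60, 2.29 and 3.07 on the tumor YFP+ arrays, against 1.15, 1.08 and 0.63 on the normal YFP+ arrays. Pfkl read 2.55, 2.75, 2.57, 2.88 and 2.66 on the tumor YFP- arrays, against 0.96, 0.36 and 0.33 on the normal YFP- arrays. The lowest tumor array stood more than 1 log2 unit above the highest normal array of either population. Pfkl differed by 1.70 ± 0.21 (SE, 3.25-fold, adjusted p = 9.6e-05) in YFP+ and 2.13 ± 0.21 (4.38-fold, adjusted p = 9.5e-06) in YFP- macrophages. Pfkp, the platelet-type subunit, read 3.0, 2.85, 3.33, 3.13 and 3.12 on the tumor YFP+ arrays, against 1.82, 1.96 and 2.27 on the normal YFP+ arrays. Pfkp read 2.68, 2.27, 2.57, 2.89 and 2.23 on the tumor YFP- arrays, against 1.40, 1.11 and 0.97 on the normal YFP- arrays. Normal YFP- arrays were the lowest, and within each population tumor and normal arrays did not overlap. Pfkp differed by 1.06 ± 0.19 (SE, 2.09-fold, adjusted p = 0.0016) in YFP+ and 1.37 ± 0.19 (2.58-fold, adjusted p = 0.000192) in YFP- macrophages. This rests on a probe with no listed position: the other Pfkp probe, on the gene's own chromosome 13, differed by 0.22 (adjusted p = 0.614) in YFP+ and 0.17 (adjusted p = 0.606) in YFP- macrophages, a probe chosen after seeing the data. Pfkm, the muscle-type subunit, differed by -0.87 (adjusted p = 0.305) in YFP+ and -0.57 (adjusted p = 0.441) in YFP- macrophages and did not pass. Without tumor YFP- 23677, its highest tumor array, Pfkm passed as lower, by -0.87 (adjusted p = 0.0205) in YFP+ and -1.07 (adjusted p = 0.00704) in YFP- macrophages. With array weights it passed as lower in YFP- macrophages (-0.93, adjusted p = 0.0378).

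Fructose 2,6-bisphosphate, the strongest activator of phosphofructokinase, is made by bifunctional enzymes of the Pfkfb family. Pfkfb4 was the 1 member that fell in the main setting. It read 1.42, 2.06, 1.47, 1.65 and 1.79 on the tumor YFP+ arrays, against 2.49, 2.48 and 2.42 on the normal YFP+ arrays. Pfkfb4 read 1.93, 1.72, 1.74, 1.83 and 1.61 on the tumor YFP- arrays, against 2.32, 2.65 and 3.10 on the normal YFP- arrays. Every tumor array lay below every normal array of its population, and the difference was -0.78 ± 0.19 (SE, 1.72-fold lower, adjusted p = 0.0131) in YFP+ and -0.93 ± 0.19 (1.9-fold lower, adjusted p = 0.00385) in YFP- macrophages. Its YFP+ call was lost without normal YFP+ 23916 (-0.77, adjusted p = 0.051). Pfkfb3, the isoform with the strongest kinase activity, read 1.28, 1.87, 0.62, 1.83 and 1.94 on the tumor YFP+ arrays, against 2.53, 1.57 and 1.32 on the normal YFP+ arrays. Pfkfb3 read 2.07, 1.23, 2.0, 2.32 and 1.66 on the tumor YFP- arrays, against 1.94, 1.65 and 1.58 on the normal YFP- arrays. Tumor and normal arrays overlapped. Pfkfb3 differed by -0.30 (adjusted p = 0.69) in YFP+ and 0.13 (adjusted p = 0.814) in YFP- macrophages, and neither passed.

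Aldolase and triosephosphate isomerase split and balance the 3-carbon sugars, and all 3 genes rose. Aldoa, the muscle-type aldolase of most tissues, read 4.57, 4.83, 4.61, 4.62 and 5.02 on the tumor YFP+ arrays, against 3.79, 3.86 and 3.78 on the normal YFP+ arrays. Aldoa read 4.74, 4.83, 4.49, 4.85 and 5.74 on the tumor YFP- arrays, against 3.39, 3.48 and 3.69 on the normal YFP- arrays. Tumor YFP- 23677 stood highest, and tumor and normal arrays did not overlap. Aldoa differed by 0.92 ± 0.23 (SE, 1.89-fold, adjusted p = 0.0166) in YFP+ and 1.41 ± 0.23 (2.65-fold, adjusted p = 0.000752) in YFP- macrophages. Its YFP+ call was lost without any 1 of the 3 normal YFP+ arrays, 23912 (0.91, adjusted p = 0.0572), 23916 (0.94, 0.0503) or 23917 (0.90, 0.064). Aldoc, the brain-type aldolase and a HIF target, read 2.47, 2.99, 2.75, 2.47 and 2.92 on the tumor YFP+ arrays, against 1.13, 0.36 and 1.08 on the normal YFP+ arrays. Aldoc read 2.76, 2.51, 2.5, 2.53 and 2.74 on the tumor YFP- arrays, against 1.05, -0.26 and -0.31 on the normal YFP- arrays. The lowest tumor array, at 2.47, stood above the highest normal array, at 1.13. Aldoc differed by 1.86 ± 0.29 (SE, 3.63-fold, adjusted p = 0.000549) in YFP+ and 2.45 ± 0.29 (5.46-fold, adjusted p = 4.53e-05) in YFP- macrophages. Tpi1, triosephosphate isomerase, read 4.58, 4.85, 4.59, 4.68 and 4.94 on the tumor YFP+ arrays, against 3.51, 3.28 and 3.49 on the normal YFP+ arrays. Tpi1 read 4.54, 4.87, 4.63, 4.89 and 4.95 on the tumor YFP- arrays, against 3.52, 3.0 and 2.77 on the normal YFP- arrays. The tumor arrays, from 4.54 to 4.95, lay above all normal arrays. Tpi1 differed by 1.30 ± 0.18 (SE, 2.47-fold, adjusted p = 0.000254) in YFP+ and 1.68 ± 0.18 (3.21-fold, adjusted p = 2.31e-05) in YFP- macrophages.

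In the payoff phase, where ATP is made, 5 of 6 genes rose. Gapdh, the dehydrogenase often taken as a reference gene, read 6.34, 6.94, 6.64, 6.75 and 6.79 on the tumor YFP+ arrays, against 6.15, 6.13 and 5.97 on the normal YFP+ arrays. Gapdh read 6.74, 7.03, 6.72, 7.07 and 6.98 on the tumor YFP- arrays, against 6.23, 5.86 and 5.71 on the normal YFP- arrays. The lowest tumor array was 6.34 and the highest normal array 6.23. Gapdh differed by 0.61 ± 0.17 (SE, 1.52-fold, adjusted p = 0.032) in YFP+ and 0.98 ± 0.17 (1.97-fold, adjusted p = 0.00132) in YFP- macrophages. None of its 9 probes is listed on the gene's own chromosome 6, so signal of near-identical copies cannot be told apart. Its YFP+ call was lost under 8 alternatives with no change of sign: in a fit of the 2 groups alone (0.61, adjusted p = 0.0598) and without any 1 of 7 arrays, which were tumor YFP+ 23548 (0.54), 23550 (0.62), 23551 (0.59) and 23677 (0.58) and normal YFP+ 23912 (0.64), 23916 (0.63) and 23917 (0.55, adjusted p = 0.13). Pgk1, phosphoglycerate kinase, read 3.41, 3.98, 3.59, 3.65 and 3.84 on the tumor YFP+ arrays, against 2.49, 2.19 and 2.05 on the normal YFP+ arrays. Pgk1 read 3.78, 3.80, 4.13, 3.78 and 3.83 on the tumor YFP- arrays, against 1.77, 1.46 and 1.30 on the normal YFP- arrays. The lowest tumor array, at 3.41, stood above the highest normal array, at 2.49. Pgk1 differed by 1.46 ± 0.17 (SE, 2.74-fold, adjusted p = 7.37e-05) in YFP+ and 2.36 ± 0.17 (5.12-fold, adjusted p = 6.16e-07) in YFP- macrophages.

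Pgam1, phosphoglycerate mutase, read 4.0, 4.08, 3.95, 4.07 and 4.32 on the tumor YFP+ arrays, against 2.68, 2.68 and 2.82 on the normal YFP+ arrays. Pgam1 read 4.12, 4.05, 4.19, 4.49 and 4.07 on the tumor YFP- arrays, against 2.02, 1.99 and 2.31 on the normal YFP- arrays. Normal YFP- arrays were the lowest group and tumor arrays the highest. Pgam1 differed by 1.36 ± 0.15 (SE, 2.56-fold, adjusted p = 3.72e-05) in YFP+ and 2.08 ± 0.15 (4.23-fold, adjusted p = 5.34e-07) in YFP- macrophages. Eno1, the enolase of most tissues, read 5.61, 5.74, 5.53, 5.75 and 5.64 on the tumor YFP+ arrays, against 4.69, 5.07 and 5.17 on the normal YFP+ arrays. Eno1 read 5.66, 5.48, 5.37, 5.83 and 5.79 on the tumor YFP- arrays, against 4.37, 4.69 and 4.53 on the normal YFP- arrays. Tumor arrays lay above normal arrays without overlap, and Eno1 differed by 0.68 ± 0.16 (SE, 1.6-fold, adjusted p = 0.0122) in YFP+ and 1.09 ± 0.16 (2.13-fold, adjusted p = 0.000338) in YFP- macrophages. The YFP+ difference was 0.40 with quantile normalization (adjusted p = 0.117) and with the deposited values (adjusted p = 0.119). Without normal YFP+ 23912 it was 0.53 (adjusted p = 0.0802), and the probe is listed on a chromosome other than that of the gene. Pkm, pyruvate kinase of muscle and most growing cells, read 4.21, 4.16, 4.08, 4.11 and 4.5 on the tumor YFP+ arrays, against 2.74, 3.16 and 3.05 on the normal YFP+ arrays. Pkm read 4.14, 4.23, 3.98, 4.49 and 4.16 on the tumor YFP- arrays, against 2.35, 2.41 and 2.56 on the normal YFP- arrays. The normal YFP- arrays were the lowest, and tumor and normal did not overlap. Pkm differed by 1.23 ± 0.16 (SE, 2.34-fold, adjusted p = 0.000151) in YFP+ and 1.76 ± 0.16 (3.39-fold, adjusted p = 4.73e-06) in YFP- macrophages, from a probe that the files do not assign to the spliced M1 or M2 form. Eno2, the neuron-type enolase, differed by -0.70 (adjusted p = 0.356) in YFP+ and -0.61 (adjusted p = 0.349) in YFP- macrophages and did not pass. Its normal arrays spread widely, with 23912 at 0.77 and 0.45 and the others from -1.23 to -0.70.

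Lactate dehydrogenase turns pyruvate into lactate, and both subunit genes rose. Ldha, the subunit that favours lactate formation, read 5.93, 6.03, 5.89, 6.12 and 6.06 on the tumor YFP+ arrays, against 5.13, 5.20 and 5.27 on the normal YFP+ arrays. Ldha read 6.08, 5.97, 5.99, 6.11 and 6.22 on the tumor YFP- arrays, against 5.16, 5.06 and 5.16 on the normal YFP- arrays. Tumor and normal arrays formed tight, separate groups, and Ldha differed by 0.81 ± 0.13 (SE, 1.75-fold, adjusted p = 0.000564) in YFP+ and 0.95 ± 0.13 (1.93-fold, adjusted p = 0.000126) in YFP- macrophages. Ldhb, the subunit that favours the return to pyruvate, read -0.16, 0.47, -0.75, -0.30 and 0.09 on the tumor YFP+ arrays, against -2.06, -1.70 and -3.21 on the normal YFP+ arrays. Ldhb read 0.09, 0.10, 0.02, 0.32 and 0.24 on the tumor YFP- arrays, against -1.57, -2.32 and -1.72 on the normal YFP- arrays. Normal YFP+ 23917 was the lowest array, and no normal array reached a tumor array. Ldhb differed by 2.19 ± 0.32 (SE, 4.57-fold, adjusted p = 0.00038) in YFP+ and 2.02 ± 0.32 (4.06-fold, adjusted p = 0.000587) in YFP- macrophages. Lactate leaves the cell through monocarboxylate carriers. Slc16a3, which encodes the exporter MCT4, read 3.77, 3.89, 3.92, 4.0 and 4.41 on the tumor YFP+ arrays, against 1.49, 1.71 and 1.95 on the normal YFP+ arrays. Slc16a3 read 4.13, 3.84, 3.74, 4.10 and 4.33 on the tumor YFP- arrays, against 0.91, 0.27 and 0.58 on the normal YFP- arrays. The tumor arrays clustered near 4 in both populations, while normal YFP- arrays were lower than normal YFP+ arrays. Slc16a3 differed by 2.28 ± 0.20 (SE, 4.84-fold, adjusted p = 4.76e-06) in YFP+ and 3.44 ± 0.20 (10.9-fold, adjusted p = 7.87e-08) in YFP- macrophages. Slc16a1, which encodes MCT1, was not well above background on any array, so no difference could be read. Pdk1, the kinase that shuts pyruvate dehydrogenase, read 0.79, 0.60, 0.45, 0.45 and 0.97 on the tumor YFP+ arrays, against -1.04, -0.78 and -1.67 on the normal YFP+ arrays. Pdk1 read 0.98, 0.32, 0.40, 0.95 and 0.57 on the tumor YFP- arrays, against -0.12, -0.80 and -0.54 on the normal YFP- arrays. Its normal YFP+ arrays were lowest on average, no normal array reached a tumor array, and Pdk1 differed by 1.82 ± 0.24 (SE, 3.53-fold, adjusted p = 0.000162) in YFP+ and 1.13 ± 0.24 (2.19-fold, adjusted p = 0.00497) in YFP- macrophages.

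RNA of Hif1a and of both oxygen sensor genes rose as well. Hif1a, the oxygen-regulated subunit, is controlled mostly at the level of its protein, and its RNA read -0.74, 0.35, -0.46, -1.28 and -0.72 on the tumor YFP+ arrays, against -3.72, -2.51 and -2.10 on the normal YFP+ arrays. Hif1a read -0.89, -1.03, -0.18, -0.50 and -1.39 on the tumor YFP- arrays, against -3.86, -3.37 and -3.47 on the normal YFP- arrays. Tumor arrays were above normal arrays without overlap, although each tissue's arrays spread by more than 1 log2 unit. Hif1a differed by 2.21 ± 0.40 (SE, 4.62-fold, adjusted p = 0.00168) in YFP+ and 2.77 ± 0.40 (6.8-fold, adjusted p = 0.000254) in YFP- macrophages. Egln1, the main prolyl hydroxylase, read -1.41, -1.27, -1.51, -1.58 and -1.16 on the tumor YFP+ arrays, against -2.35, -1.77 and -2.06 on the normal YFP+ arrays. Egln1 read -1.77, -1.56, -1.52, -1.21 and -1.38 on the tumor YFP- arrays, against -2.33, -2.08 and -2.72 on the normal YFP- arrays. Within each population tumor and normal arrays did not overlap, and Egln1 differed by 0.67 ± 0.19 (SE, 1.6-fold, adjusted p = 0.033) in YFP+ and 0.89 ± 0.19 (1.85-fold, adjusted p = 0.00576) in YFP- macrophages. With the normexp background correction its YFP+ difference was 0.42 (adjusted p = 0.189), and the call was also lost in a fit of the 2 groups alone (0.67, 0.0515) and without 1 of 5 arrays, normal YFP+ 23912 (0.53, 0.165) or 23917 (0.67, 0.0992) or tumor YFP+ 23547 (0.68), 23548 (0.64) or 23677 (0.62). Egln3, a hydroxylase that HIF itself induces, read 2.35, 2.76, 2.52, 2.82 and 2.97 on the tumor YFP+ arrays, against 0.37, -2.14 and -2.83 on the normal YFP+ arrays. Egln3 read 2.62, 2.51, 3.08, 3.32 and 3.21 on the tumor YFP- arrays, against 0.92, -1.71 and -1.76 on the normal YFP- arrays. The normal arrays numbered 23912 stood more than 2 log2 units above the other normal arrays in both populations, yet below all tumor arrays. Egln3 differed by 4.22 ± 0.65 (SE, 18.6-fold, adjusted p = 0.00056) in YFP+ and 3.80 ± 0.65 (13.9-fold, adjusted p = 0.00109) in YFP- macrophages. Without normal YFP+ 23912 the YFP+ difference was 5.17 (adjusted p = 7.2e-05) and without normal YFP+ 23917 it was 3.57 (adjusted p = 0.00516), and without normal YFP- 23912 the YFP- difference was 4.68 (adjusted p = 0.000124). A dimmer second Egln3 probe was not well above background on any normal array, and by it tumor was at least 16.5-fold higher in YFP+ and at least 20.1-fold higher in YFP- macrophages.

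Of the 9 other HIF targets, 6 rose. Bnip3, a mitophagy receptor of mitochondria, read 2.42, 2.96, 2.12, 2.32 and 2.82 on the tumor YFP+ arrays, against 0.35, 0.51 and 0.21 on the normal YFP+ arrays. Bnip3 read 2.69, 2.63, 2.82, 3.58 and 3.0 on the tumor YFP- arrays, against -0.04, 0.37 and 0.89 on the normal YFP- arrays. The lowest tumor array, at 2.12, stood above the highest normal array, at 0.89. Bnip3 differed by 2.17 ± 0.26 (SE, 4.51-fold, adjusted p = 8.65e-05) in YFP+ and 2.54 ± 0.26 (5.8-fold, adjusted p = 1.6e-05) in YFP- macrophages. Its relative Bnip3l differed by 0.29 (adjusted p = 0.388) in YFP+ and 0.48 (adjusted p = 0.0878) in YFP- macrophages and did not pass. The Bnip3l probe used is listed on a chromosome other than that of the gene. Over the gene's 4 probes the YFP- difference ran from 0.39 to 0.87. It passed in YFP- macrophages with the mean of all probes (0.64, adjusted p = 0.0224) and with array weights (0.51, adjusted p = 0.0192). Ndrg1, a stress gene raised by low oxygen, read 1.45, 1.89, 1.82, 1.65 and 1.95 on the tumor YFP+ arrays, against -1.47, -1.59 and -1.01 on the normal YFP+ arrays. Ndrg1 read 1.61, 1.55, 1.86, 2.40 and 1.84 on the tumor YFP- arrays, against -1.61, -2.10 and -0.72 on the normal YFP- arrays. All tumor arrays were above 0 and all normal arrays below it. Ndrg1 differed by 3.11 ± 0.28 (SE, 8.63-fold, adjusted p = 4.89e-06) in YFP+ and 3.33 ± 0.28 (10.1-fold, adjusted p = 2.08e-06) in YFP- macrophages.

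Ankrd37, a small ankyrin repeat gene used as a hypoxia marker, read -1.38, -0.79, -0.74, -0.50 and 0.32 on the tumor YFP+ arrays, against -3.07, -2.18 and -2.83 on the normal YFP+ arrays. Ankrd37 read -0.69, -0.86, -0.34, 0.37 and 0.21 on the tumor YFP- arrays, against -3.72, -4.44 and -5.07 on the normal YFP- arrays. Normal YFP- arrays were lower than normal YFP+ arrays, and 1 of the 3 was not well above background. Ankrd37 differed by 2.08 ± 0.40 (SE, 4.22-fold, adjusted p = 0.00297) in YFP+ and 4.15 ± 0.40 (17.7-fold, adjusted p = 8.27e-06) in YFP- macrophages. Adm, the vessel-dilating peptide adrenomedullin, read -5.21, -3.25, -4.12, -3.55 and -2.13 on the tumor YFP+ arrays, against -6.69, -6.75 and -6.98 on the normal YFP+ arrays. Adm read -2.35, -3.20, -3.06, -1.28 and -1.99 on the tumor YFP- arrays, against -6.54, -6.86 and -4.67 on the normal YFP- arrays. It was well above background on 4 of 5 tumor YFP+ and 5 of 5 tumor YFP- arrays and on 0 of 3 arrays in each normal group. Adm was therefore at least 2.12-fold higher in tumor in YFP+ and at least 4.74-fold higher in YFP- macrophages. The limma adjusted p of 0.00384 and 0.0012 came from the signals as read, those at background included, and do not test these bounds. Adm passed the filter on dim probes only through its tumor arrays, so its calls are a description and no support. These bounds set each normal array no lower than its lowest signal well above background.

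Ddit4, a brake on growth signalling through mTOR, read 2.28, 2.16, 2.0, 2.03 and 2.40 on the tumor YFP+ arrays, against 0.22, -0.25 and 0.43 on the normal YFP+ arrays. Ddit4 read 2.62, 2.54, 2.28, 2.80 and 2.16 on the tumor YFP- arrays, against -0.67, -0.91 and -0.34 on the normal YFP- arrays. The lowest tumor array, at 2.0, stood above the highest normal array, at 0.43. Ddit4 differed by 2.04 ± 0.20 (SE, 4.12-fold, adjusted p = 1.42e-05) in YFP+ and 3.12 ± 0.20 (8.69-fold, adjusted p = 1.79e-07) in YFP- macrophages. Ero1a, an oxidase that helps proteins fold in the endoplasmic reticulum, read 0.86, 1.82, 1.27, 1.09 and 1.96 on the tumor YFP+ arrays, against 0.00, -1.04 and -0.89 on the normal YFP+ arrays. Ero1a read 1.48, 1.26, 1.60, 1.92 and 1.84 on the tumor YFP- arrays, against -1.97, -1.29 and -1.16 on the normal YFP- arrays. The groups did not overlap, and Ero1a differed by 2.05 ± 0.31 (SE, 4.13-fold, adjusted p = 0.000446) in YFP+ and 3.10 ± 0.31 (8.55-fold, adjusted p = 9.82e-06) in YFP- macrophages, from a probe listed on a chromosome other than that of the gene. Car9, carbonic anhydrase IX, differed by 0.06 (adjusted p = 0.958) in YFP+ and 0.33 (adjusted p = 0.586) in YFP- macrophages, and neither passed. Without normal YFP- 23912, its highest normal array, Car9 rose by 0.97 (adjusted p = 0.0422) in YFP- macrophages. Mxi1, a MYC antagonist, was well above background on 8 of the 16 arrays and on none of the normal YFP- arrays. It differed by -0.61 (adjusted p = 0.646) in YFP+ macrophages and was at least 1.26-fold higher in tumor in YFP- macrophages. The adjusted p of 0.282 in YFP- macrophages came from the signals as read and does not test this bound, and neither difference passed.

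**Figure D2:**
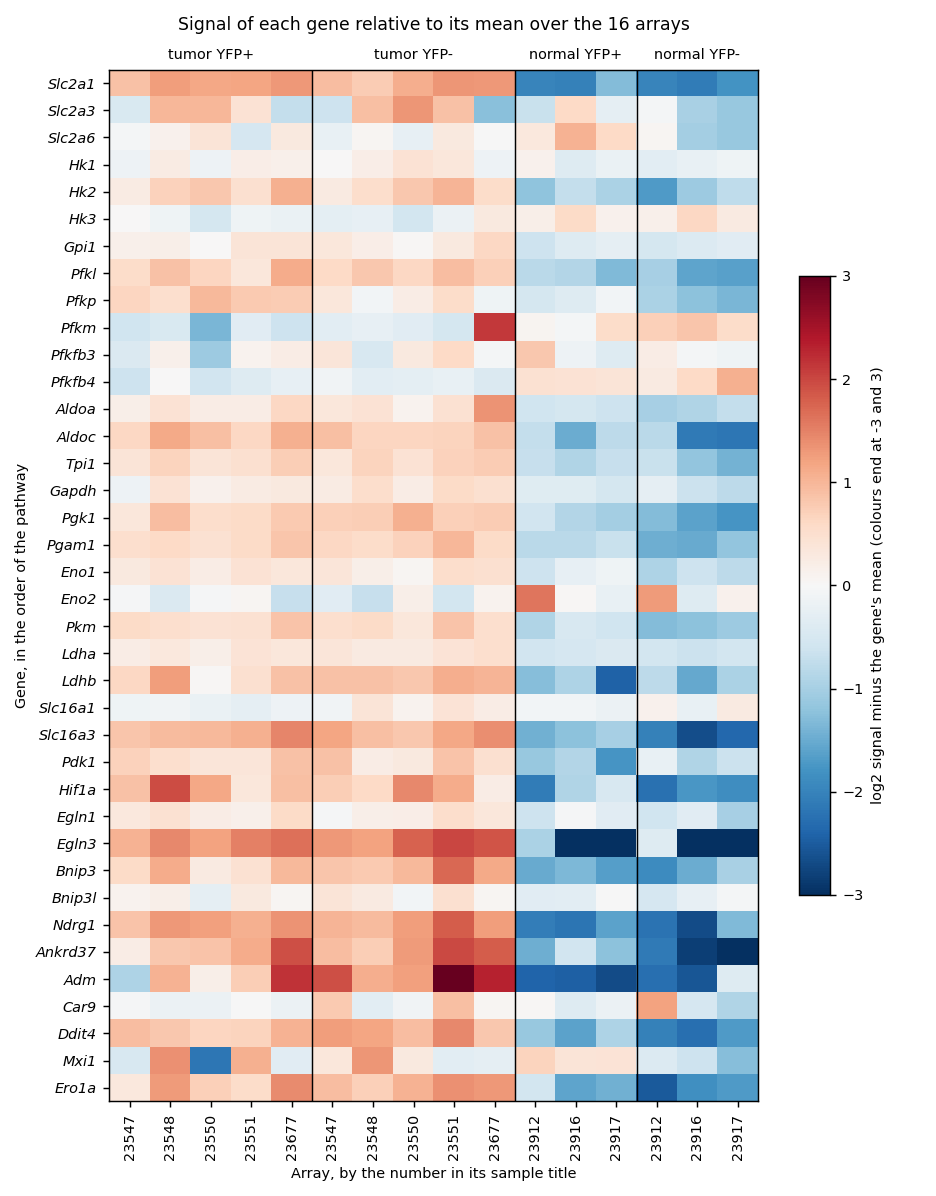
Each gene's log2 signal minus its mean over the 16 arrays, for all 38 genes (rows, in pathway order) and 16 arrays (columns, by group), with red above and blue below the mean. Rows from Slc2a1 to Ero1a that rose in tumor are mostly red on the 10 tumor arrays and blue on the 6 normal arrays, while Slc2a3, Pfkfb3 and Car9 show no such split.

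**Figure D3:**
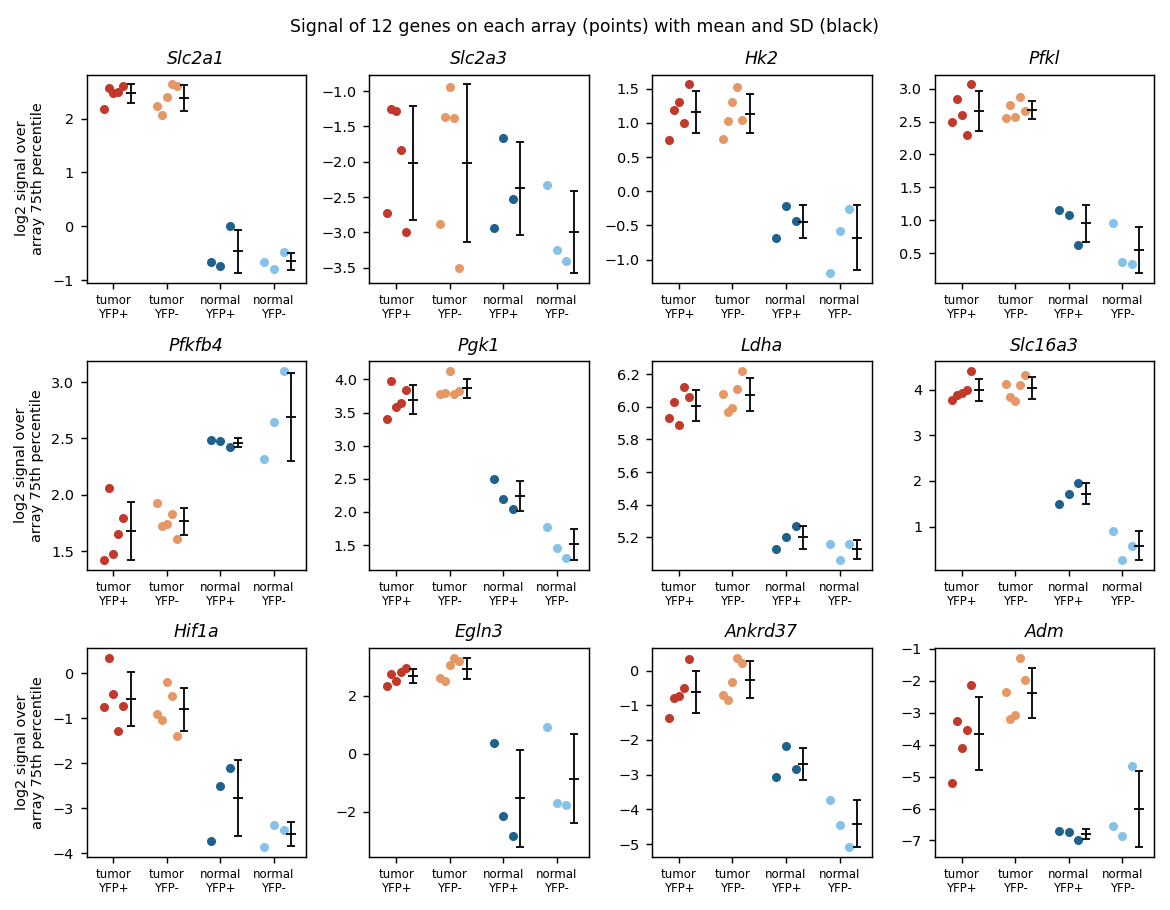
Log2 signal over the array's 75th percentile for 12 genes, 1 point an array, in the 4 groups (tumor left of normal, YFP+ left of YFP-), with mean and SD in black. Slc2a3 overlaps between tissues, Pfkfb4 is lower in tumor, and the other 10 genes are higher on every tumor array than on every normal array of the same population.

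Isoform choice within a step was described by the log2 ratio of a pair of probes on the same array, which cancels the scaling of the array. Only differences of a ratio between groups are given, since 2 probes cannot be set against each other in level. Of 14 pairs 13 could be tested, in 4 comparisons each, with two-sided exact permutation tests. The smallest p these designs allow is 0.0357 for 5 against 3 arrays, 0.0079 for 5 against 5 and 0.1 for 3 against 3. After Benjamini-Hochberg adjustment over the 52 tests 0 passed (lowest adjusted p = 0.0929), with 22 at an unadjusted p under 0.05. Tests of 3 against 3 could not pass at all. The tumor against normal ratios could pass only if nearly all tumor YFP ratios did too, so no conclusion is drawn from this count. The Hk2 to Hk1 ratio was higher in tumor by 1.39 in YFP+ and 1.43 in YFP- macrophages (exact p = 0.0357 each), and that of Hk2 to Hk3 by 2.09 and 2.37 (exact p = 0.0357 each). The ratio of Slc2a1 to Slc2a3 was higher by 2.57 and 2.05, and that of Slc2a6 to Slc2a1 lower, by -3.53 and -2.35 (exact p = 0.0357 each). The Pfkm to Pfkl ratio differed by -2.57 and -2.70, and that of Pfkp to Pfkl by -0.64 (exact p = 0.143) and -0.76 (exact p = 0.0357). Eno2 to Eno1 differed by -1.38 and -1.70, Ldhb to Ldha by 1.38 and 1.08, Egln3 to Egln1 by 3.55 and 2.91 and Bnip3 to Bnip3l by 1.89 and 2.05 (exact p = 0.0357 each). Aldoc to Aldoa differed by 0.94 (exact p = 0.0357) and 1.04 (exact p = 0.0714), and Pfkfb4 to Pfkfb3 by -0.48 (exact p = 0.214) and -1.06 (exact p = 0.0714). Between YFP+ and YFP- in tumor, the Pfkp to Pfkl ratio differed by 0.58 and that of Egln3 to Egln1 by -0.37 (exact p = 0.0397 each). All Pfkp ratios used the Pfkp probe with no listed position, and the other Pfkp probe was not tested in a ratio. Ratios with Hk1, Eno1 and Bnip3l used probes listed on a chromosome other than that of the gene. The Hk1 probes on its own chromosome differed in tumor by -0.19 and -0.32 in YFP+ and by 0.35 and 0.15 in YFP- macrophages. The probe used differed by 0.22 and 0.39. A ratio can move through 1 of its genes alone, and no share over other pairs stands beside the 22.

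Between YFP+ and YFP- macrophages in tumor, no gene of the 37 passed, 2 were at an unadjusted limma p under 0.05 (10.3% of all genes), and the median difference was -0.09 against 0.01 over all genes. The interval of a single gene's difference had a median half-width of 0.43. Pfkp stood highest, averaging 3.08 over YFP+ tumor arrays and 2.53 over YFP- tumor arrays (0.55 ± 0.16, SE, adjusted p = 0.123). The other Pfkp probe, on the gene's own chromosome, differed by 0 ± 0.18 (SE) here. Adm stood lowest, averaging -3.65 over YFP+ tumor arrays and -2.38 over YFP- tumor arrays (-1.28 ± 0.55, SE, adjusted p = 0.416). Slc2a1 differed by 0.08 (95% interval -0.29 to 0.44), Ldha by -0.07 (-0.30 to 0.16) and Hk2 by 0.02 (-0.43 to 0.48). Fibroblast and stellate cell markers reached sums of 8.64 to 14.6 in YFP+ and 71.7 to 111 in YFP- tumor samples (11 of 14 lower). In the same comparison 6 of 13 ductal and 6 of 9 mast cell markers were lower and 5 of 8 plasma cell markers higher, with the sums given above, and the part of these lists in the values was not tested. Without any 1 array the count past the threshold stayed at 0. Within slides 1 to 4 the median of the 37 was 0, 0.19, -0.24 and -0.12, so its sign differed between slides.

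In normal pancreas 0 of 37 passed either, with 12 at an unadjusted limma p under 0.05 (7.64% of all genes) and a median of 0.24 against -0.10 over all genes. For 11 genes every normal YFP+ array lay above every normal YFP- array, beside 6.39% of all genes tested. Slc16a3 had the lowest p, averaging 1.72 over YFP+ normal arrays and 0.59 over YFP- normal arrays (1.13 ± 0.23, SE, adjusted p = 0.108). Ankrd37 differed by 1.72 ± 0.45 (SE, adjusted p = 0.187), Slc2a6 by 1.36 ± 0.32 (0.142) and Pfkp by 0.86 ± 0.21 (0.165). The other Pfkp probe, on the gene's own chromosome, differed by -0.04 ± 0.24 (SE) in normal pancreas. Pgk1 and Ddit4 differed by 0.73 and 0.78, while Pdk1 differed by -0.68 (adjusted p = 0.526). This count depends on 1 array: without normal YFP- 23912, Slc2a6 (1.75, adjusted p = 0.0085), Slc16a3 (1.29, 0.0168) and Aldoc (1.15, 0.0368) passed. They stood beside 334 of all 24278 genes, against 5 with all arrays. With array weights 9 of the 37 passed, beside 1165 of all 24278 genes. There limma gave normal YFP- 23912 a weight of 0.408 and normal YFP- 23916 a weight of 4.73. Acinar markers, given above, were lower in most normal YFP+ than normal YFP- samples with overlapping ranges, and their part was not tested. Within slides 2 and 3, which held both normal groups, the median was 0.37 and 0.25.

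Whether the tumor difference was larger in 1 population was asked by the difference between the YFP differences of tumor and normal pancreas. It passed for 0 of 37 genes (0.103% of all genes), with 8 at an unadjusted limma p under 0.05 (5.97% of all genes) and a median of -0.37 against 0.05 over all genes. For 30 of the 35 genes well above background on an array of every group, which leaves out Adm and Mxi1, the tumor difference was more positive in YFP- macrophages, as for 45.9% of all genes. Ankrd37 (-2.07 ± 0.57, SE, adjusted p = 0.339), Slc2a6 (-1.29, 0.484), Slc16a3 (-1.16, 0.230) and Ddit4 (-1.08, 0.305) stood furthest below 0 among these 35. Array weights brought 6 of the 37 past the threshold, Slc2a6, Pgk1, Pgam1, Slc16a3, Ankrd37 and Ddit4. They also brought the count over all 24278 genes from 25 to 358, with a weight of 4.73 on normal YFP- 23916.

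**Figure D4:**
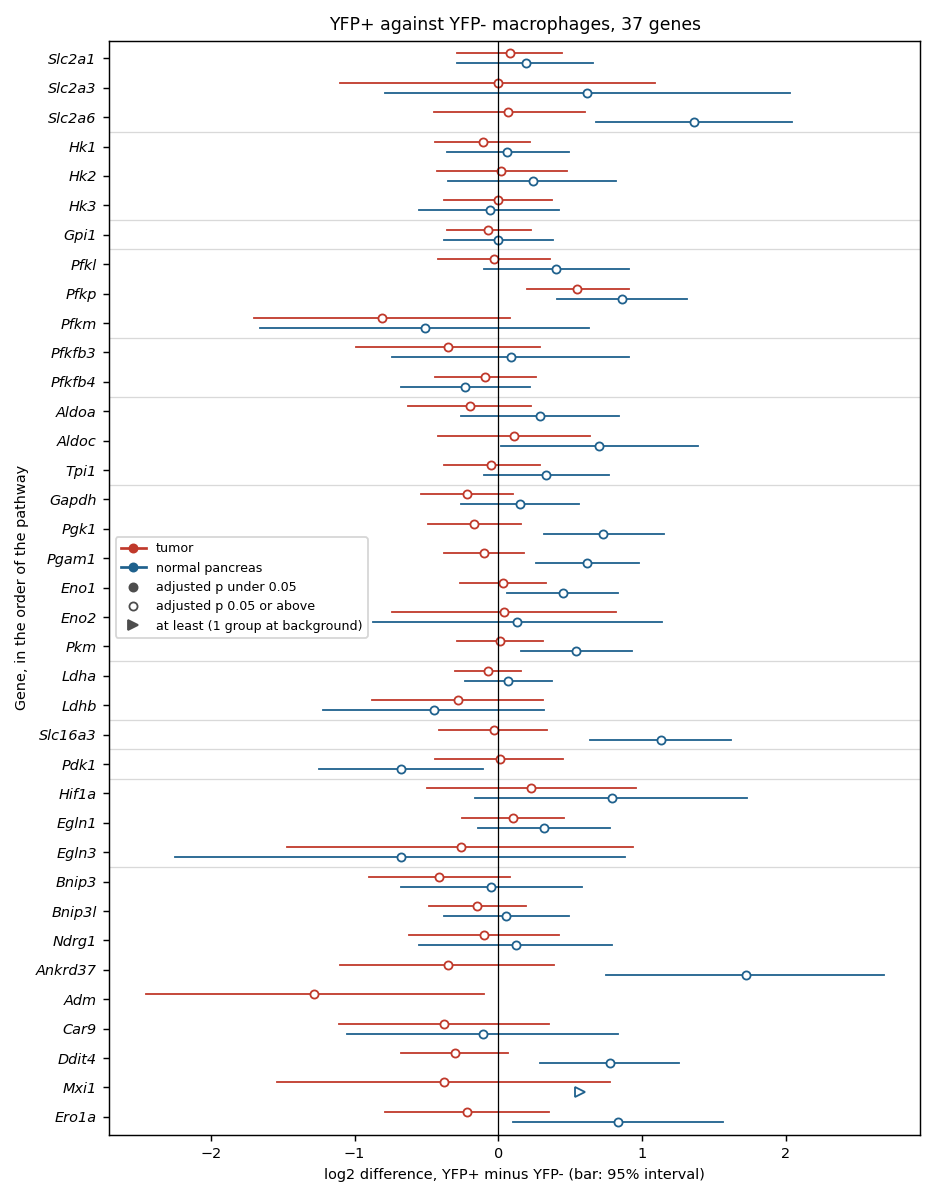
Log2 difference of YFP+ minus YFP- macrophages for the 37 genes in tumor (red) and normal pancreas (blue), with 95% intervals; open points did not pass the threshold. Adm is not drawn for normal pancreas, where it was not well above background, and Mxi1 there is a lower bound (triangle). Tumor values run from -1.28 to 0.55 and the other normal values from -0.68 to 1.72, and no point is filled.

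Probes were not interchangeable for some genes. Of the 38 genes 15 had several probes, 66 probes in all, and the brightest is used here. The probe lies on another chromosome than its gene for 5 genes and has no position for 1. Signs differed between probes for 2 genes in YFP+ macrophages, Hk1 and Pfkfb3, and for 1 in YFP- macrophages, Pfkfb3. All 9 Gapdh probes were higher in tumor, by 0.61 to 1.22 in YFP+ and by 0.71 to 1.82 in YFP- macrophages, and the brightest was the smallest in YFP+ macrophages. The 3 Ldha probes gave 0.81 to 1.28 and 0.95 to 1.58, with the brightest at the low end in both.

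**Figure D5:**
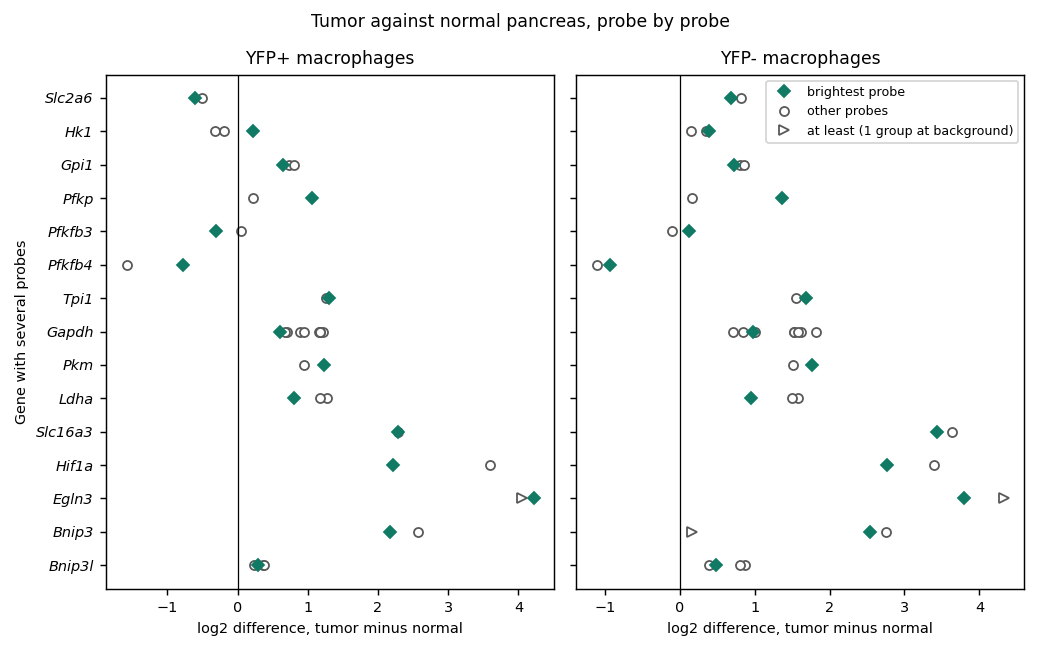
Log2 difference of tumor minus normal pancreas for every probe of the 15 genes with several probes, in YFP+ (left) and YFP- (right) macrophages; diamonds are the brightest probe, circles the others, and triangles lower bounds where the normal group was not well above background (a second Bnip3 probe has none in YFP+ and is not drawn there). The brightest Egln3 probe lies at 4.22 in YFP+ macrophages and the second at a bound, and the 2 Pfkp probes lie apart at 1.06 and 0.22.

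Related genes outside the 38, from lists of neighbouring pathways, were read in the same fit, where 6.03% of all genes rose in YFP+ and 8.03% in YFP- macrophages. The counts for the citric acid cycle and pyruvate entry in YFP+ macrophages, the HIF machinery and the regulators lie near those shares. They are no result about these lists. The other lists were not tested as sets, most are short, and their counts are descriptions too. Among 28 further hypoxia targets, 10 rose and 0 fell in YFP+, and 13 rose and 2 fell in YFP- macrophages, with medians of 0.42 and 0.63, against -0.04 and -0.16 over all genes. Vegfa, the vessel growth factor, differed by 5.01 in YFP+ and 4.71 in YFP- macrophages, and Hilpda, which holds back fat breakdown in lipid droplets, by 4.43 in YFP+ and 4.97 in YFP- macrophages. Of 20 genes listed under the citric acid cycle 2 rose in YFP+ and 4 in YFP- macrophages. Among them were Acod1, the itaconate-making enzyme of activated macrophages (3.10 in YFP+ and 3.59 in YFP- macrophages), and Mdh2 (0.76 in YFP+ and 1.02 in YFP- macrophages). Of 7 genes of the pentose phosphate pathway 2 and 3 rose, among them Taldo1 (1.02 in YFP+ and 1.37 in YFP- macrophages) and Tkt (0.72 in YFP+ and 1.09 in YFP- macrophages). Of 10 glycogen genes 2 rose in each population, Pygl, which releases glucose from glycogen (1.75 in YFP+ and 2.62 in YFP- macrophages), and Gyg, which primes its synthesis (0.85 in YFP+ and 1.28 in YFP- macrophages). Pygb fell in YFP- macrophages. Of 14 genes of pyruvate entry into mitochondria 2 rose and 1 fell in YFP+, and 3 rose and 1 fell in YFP- macrophages, with the pyruvate carrier gene Mpc1 at 1.03 in YFP+ and 0.98 in YFP- macrophages. Among 8 regulators, 1 rose and 1 fell in each population. Txnip, which restrains glucose uptake, differed by -1.79 in YFP+ and -1.68 in YFP- macrophages, and its relative Arrdc4 by 1.72 in YFP+ and 1.62 in YFP- macrophages. Of 12 genes of the HIF machinery 1 rose in each, Eloc (0.45 in YFP+ and 0.41 in YFP- macrophages). Of 17 other isoforms tested, 3 rose and 1 fell in YFP+ and 4 rose and 1 fell in YFP- macrophages, with Pgm1 at 1.36 in YFP+ and 1.85 in YFP- macrophages and Slc16a7, the carrier MCT2, at -1.25 in YFP+ and -1.37 in YFP- macrophages. In tumor, YFP+ against YFP-, 2 genes of these lists passed the threshold. Lox, which cross-links collagen, was not well above background on any tumor YFP+ array and was at least 11.6-fold lower. Its limma adjusted p of 4.53e-05 came from the signals as read and does not test this bound. Pklr was lower by -1.90 (adjusted p = 0.00439).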

How the data were processed

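Each of the 16 one-colour Agilent 4x44K arrays measured RNA of 1 sorted sample. Per the labels' protocols, cells were sorted into lysis buffer, amplified with Sigma WTA2 and labelled with Kreatech ULS. Per the file headers, Agilent Feature Extraction 11.5.1.1 made the deposited red processed signal intensity of each spot on mm9 probes. The authors' deposited log2 value table, whose columns share nearly 1 distribution, was an alternative, and its further processing is not given in the sources used here. Outlier spots were dropped, the log2 intensities of a probe's spots were averaged, and each array's 75th percentile over probes was subtracted. Probes with a missing value on any array were left out. Probes well above background on at least 3 arrays were kept, with the brightest probe a gene. limma 3.58.1 in R 4.3.3 fitted 4 group means over 16 arrays, with Benjamini-Hochberg adjustment over 24278 genes at 0.05, in 5 comparisons. Errors are SE, intervals 95%, and the number of arrays limits the precision.

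Isoform ratios were tested with scipy 1.17.1, and the scripts were tested on simulated data. Alternatives were background correction, normalization, the filter on dim probes, the choice of probe, slide or sample number as a block, array weights and leaving out each array. Named genes are all 38 members, with values on every array for those past the threshold in any comparison and for Slc2a1, Hk2, Pfkfb3, Ldha, Slc16a3, Hif1a and Egln3, and at most 4 genes a comparison from each other list. Members and lists were chosen with earlier results of these data known. A gene of the further hypoxia targets is not reported here.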

Additional observations from a re-analysis of the deposited data

Results flagged for a closer look

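Of 74 sets of 5 tumor arrays, 1 a gene and population, 4 held an array far from the other 4, where chance flags about 1 in 20. Pfkm read -1.70 on tumor YFP+ 23550, against -0.94 to -0.65 on the others. Pfkm read 1.80 on tumor YFP- 23677, against -0.85 to -0.56, and Aldoa on the same array read 5.74, against 4.49 to 4.85. Pgk1 read 4.13 on tumor YFP- 23550, against 3.78 to 3.83. Aldoa and Pgk1 stood above all normal YFP- arrays with or without these arrays.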

How the results depend on the processing

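No result changed sign past a threshold. Of the 27 genes past the threshold in both populations, 20 kept both calls under every alternative run, and 7 lost at least 1 (Gpi1, Pfkp, Pfkfb4, Aldoa, Gapdh, Eno1 and Egln1). The count of members past it ran from 22 to 28 in YFP+ and 25 to 33 in YFP- macrophages over all alternatives, and their median tumor difference from 1.0 to 1.26 and 1.39 to 1.54. The median YFP difference ran from -0.15 to -0.04 in tumor and 0.15 to 0.34 in normal pancreas.

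Counts over all genes moved more. Between YFP+ and YFP- in tumor, 580 genes passed, and 293 when probes had to be above background on all 16 arrays. In normal pancreas 5 passed, against 0 with normexp, 16 with quantile normalization, 15 with the deposited values, 10 without a filter, 0 with probes above background on all 16 arrays, 2 with slide as a block, 0 in a fit of the 2 groups alone and 1165 with array weights, where 9 members passed. Without 1 array this count ran from 0 to 334, and that of members from 0 to 3, the highest without normal YFP- 23912. Tumor against normal gave 4467 genes in YFP+ and 9225 in YFP- macrophages with array weights (2936 and 3829 without), 2267 in YFP- in a fit of the 2 groups alone, and 1957 to 3222 and 2395 to 4748 without 1 array, lowest without normal YFP+ 23917 and normal YFP- 23916. The difference between YFP differences had 25 genes, against 0 with probes above background on all 16 arrays, 9 with slide as a block and 358 with array weights (6 members), and 9 to 64 without 1 array, highest without normal YFP- 23912. Normexp moved the median over all genes to -0.12 between YFP+ and YFP- in tumor (0.01 in the main setting) and to 0.06 in tumor against normal among YFP- macrophages (-0.16). The causes were not tested.

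The sample number was also used as a replicate block, although the labels do not say that it pairs samples. Deviations of same-numbered samples correlated at -0.29 to 0.314, and only for 23912 was this above the highest correlation with another number. With this block 599 genes passed in tumor, 0 in normal pancreas, 2953 and 3843 in the tumor comparisons and 16 in the difference between them. The same number of members, 27, passed in each tumor comparison. With 3 arrays in each normal group, small differences could not be seen.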
